A study of Mus musculus with 10 samples.

Results

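Aquaporins are membrane channels that carry water, and in some members also small solutes, across cell membranes. The 6 mouse genes described here, Aqp1, Aqp3, Aqp4, Aqp7, Aqp8 and Aqp11, were chosen by gene name as channels of crypt and villus, and 9 of the 41174 gene probes on the array carried their names. They were among 28034 gene names on the array. Aqp4 was measured by 3 probes, Aqp7 by a pair of probes, and each of the other 4 genes by 1 probe.

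Sample RNA from mouse small intestine, taken 1 day after a perturbation or from its control, was hybridised to 10 Agilent 2-colour arrays. In the animals, crypts from AhCre Lgr4fl/fl Lgr5fl/fl mice (the labels also write P450Cre), in which xenobiotics switch on the Cre, were set on the same array against wt control crypts, as 2 biological replicates with swapped dyes. The labels do not say whether the wt mice received the inducer. In culture, 2 organoid cultures from VillinCre_Lgr4fl/fl-Lgr5fl/fl mice were set against 2 from VillinCre_wt mice, which the labels give as 1 day of tamoxifen, so the controls carried the Cre and had an inducer. VillinCre acts in the intestinal epithelium, and organoids are crypt cells grown as miniature epithelia without vessels, nerves or muscle. Last, 1 organoid culture split into medium with EGF and Noggin but without R-spondin (EN) was set against 1 culture with EGF, Noggin and R-spondin. R-spondin is a secreted protein that strengthens Wnt signalling through the receptors Lgr4 and Lgr5. All organoid RNA was in Cy5, with a commercial mouse reference RNA in Cy3. The labels name biological replicates without saying which came from separate animals, so p-values measure only the spread between these samples.

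Aqp1, Aqp4 and Aqp8 are classed as water channels, Aqp3 and Aqp7 as aquaglyceroporins, which also carry glycerol, and Aqp11 as a distant member found on internal membranes. In the gut wall Aqp1 is best known from the endothelium of vessels and lacteals and from red blood cells, Aqp3 from the basolateral membrane of epithelial cells, and Aqp8 from epithelial cells, where it also passes ammonia and hydrogen peroxide. Aqp4 is known from the basolateral membrane of crypt base cells in rodents and from glia, and Aqp7 from fat cells. Loss of Aqp11 gives cystic kidneys in mice.

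The start regions of Aqp8, Aqp3 and Aqp1, which differed at an unadjusted p under 0.05 in organoids, and of Aqp11, the member detected throughout that varied least, are printed here so that the text around each gene's start can be read beside its values. Each runs from 250 bases before to 50 bases after the annotated start, 300 bases in all, 5′ to 3′ on the gene's own strand, in RefSeq's build GRCm38.p6. Aqp8 lies at chr7:123462044-123462343 on the plus strand, Aqp3 at chr4:41098134-41098433 on the minus strand, Aqp1 at chr6:55336049-55336348 on the plus strand and Aqp11 at chr7:97738198-97738497 on the minus strand. Capitals mark GCGTG, the core bound by the aryl hydrocarbon receptor, or its reverse complement.
Aqp8: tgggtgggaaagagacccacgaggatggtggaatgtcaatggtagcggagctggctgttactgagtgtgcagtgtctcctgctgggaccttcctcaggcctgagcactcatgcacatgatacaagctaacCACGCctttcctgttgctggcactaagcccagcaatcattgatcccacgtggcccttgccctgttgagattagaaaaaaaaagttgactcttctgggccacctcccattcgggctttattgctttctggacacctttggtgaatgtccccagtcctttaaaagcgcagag
Aqp3: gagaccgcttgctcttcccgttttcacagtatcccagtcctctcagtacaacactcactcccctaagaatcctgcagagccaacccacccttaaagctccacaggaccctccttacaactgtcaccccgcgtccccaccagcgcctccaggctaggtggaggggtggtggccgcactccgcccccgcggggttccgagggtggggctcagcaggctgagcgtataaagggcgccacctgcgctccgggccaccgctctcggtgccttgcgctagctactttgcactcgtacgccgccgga
Aqp1: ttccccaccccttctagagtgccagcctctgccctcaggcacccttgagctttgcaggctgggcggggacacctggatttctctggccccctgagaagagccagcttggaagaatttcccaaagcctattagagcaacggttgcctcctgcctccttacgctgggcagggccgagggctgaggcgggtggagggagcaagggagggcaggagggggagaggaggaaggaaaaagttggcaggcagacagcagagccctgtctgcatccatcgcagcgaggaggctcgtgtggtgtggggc
Aqp11: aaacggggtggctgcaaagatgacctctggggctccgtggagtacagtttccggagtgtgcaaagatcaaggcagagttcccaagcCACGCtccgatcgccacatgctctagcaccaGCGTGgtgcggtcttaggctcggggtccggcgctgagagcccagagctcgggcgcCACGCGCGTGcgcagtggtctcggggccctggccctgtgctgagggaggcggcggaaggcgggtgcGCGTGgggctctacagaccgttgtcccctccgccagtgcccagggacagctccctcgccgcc
Aqp11 held 5 matches to GCGTG, a pair of which lie end to end, and Aqp8 held 1, while Aqp1 and Aqp3 held none. Over the 32851 promoters of the table, 32.4% held GCGTG on either strand. The TCF/LEF cores CTTTGA and CTTTGT, searched on both strands because the perturbations act on Wnt signalling, were in none of these 4 windows and in 16% and 18.7% of all promoters. The CDX core TTTATG was also in none of the 4 and in 11.9% of all. The G and C content was 52% for Aqp8, 64% for Aqp3, 62.7% for Aqp1 and 68% for Aqp11. A match is a description of letters, and the absence of one says only that these letters are not in this window.

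On the arrays, the probe of Aqp1 lay on chromosome 6 from 55298480 to 55298539, and that of Aqp3 on chromosome 4 from 41039962 to 41040021, in the build mm9 of the file headers. The probe of Aqp8 lay on chromosome 7 from 130611436 to 130611495, and that of Aqp11 on the same chromosome from 104874989 to 104875048. The 3 probes of Aqp4 lay on chromosome 18 between 15551497 and 15552192. The probes of Aqp7 lay on chromosome 4 between 40981221 and 40981302. They share 38 positions, of which 37 are identical (G18A, counted from the 5′ end of the downstream probe), so they are near copies of one measurement. Whether a probe lies in coding sequence or in a UTR was not analysed here.

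The targeted genes were checked against the labels. Lgr4 was lower in deleted crypts by a log2 difference of -1.56 (SE 0.22) and Lgr5 by -1.68 (SE 0.23), with adjusted p of 0.0893 and 0.0885 by limma. In organoids Lgr4 differed by -3.58 (SE 0.37), and Lgr5 was not well above background in either deleted culture. These Lgr4 values are from its brightest probe, which by ratio to the organoid reference read -0.59 (SE 0.27). Of its other 3 probes, 1 read -1.05 in crypts and -3.39 in organoids, 1 read 0.65 and 0.14, and 1 was dim and read -0.0028 in crypts. Whether the probes lie in the deleted part of Lgr4 was not analysed here. In the Cy5 channel 62.2% to 63.1% of gene spots were well above background on the R-spondin arrays, 46.9% to 50.7% on the deletion organoid arrays and 40.2% to 56.9% on the crypt arrays. The dye-swapped arrays of crypt replicate 1 correlated at 0.365 across 12206 genes, against 0.921 in replicate 2, so replicate 1 is the less precise. On the 4 deletion organoid arrays the Cy3 reference was unlike that of the others: only 3.66% to 4.26% of gene spots were above background there, and negative controls, at medians of 5883 to 6564, were brighter than gene spots, at 1830 to 1933. Organoid deletion is therefore given from Cy5 alone, with the ratio beside it. All 6 enterocyte, 4 goblet and 3 Paneth cell markers measured were above background in every condition. Of 6 endothelial markers, Cdh5, Emcn, Kdr and Pecam1 missed background on at least 1 array of each condition, and Plvap was above it on every array. Of 5 immune markers, 4 were above background on every array of both crypt groups, and 2 or 3 in organoids. Of 5 smooth muscle and stroma markers, 1 was so in deleted crypts, 2 in wt crypts, 3 in deleted and in wt organoids, 4 without and 5 with R-spondin. Of 4 enteric glia markers, 0 were so in crypts, 1 in deleted and in wt organoids, 3 without and 4 with R-spondin.

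In crypts Aqp8 was higher and Aqp4 lower in the deleted samples on every array, while Aqp1, Aqp3 and Aqp11 did not keep 1 size or sign across the replicates. The question was what the epithelium expresses 1 day after both receptors are lost, before the tissue changes in histology. None of the 5 members tested passed an adjusted p of 0.05 in limma, in a comparison where 0.0492% of the 12206 genes did (6 higher and 0 lower, with 1677 genes at an unadjusted p under 0.05). At that unadjusted level 2 of the 5 passed, Aqp8 and Aqp4, against 13.7% of all genes. The same 2 of 5 kept 1 sign on all 4 arrays, against 36.5% of all genes, a share near the background.

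**Figure D1:**
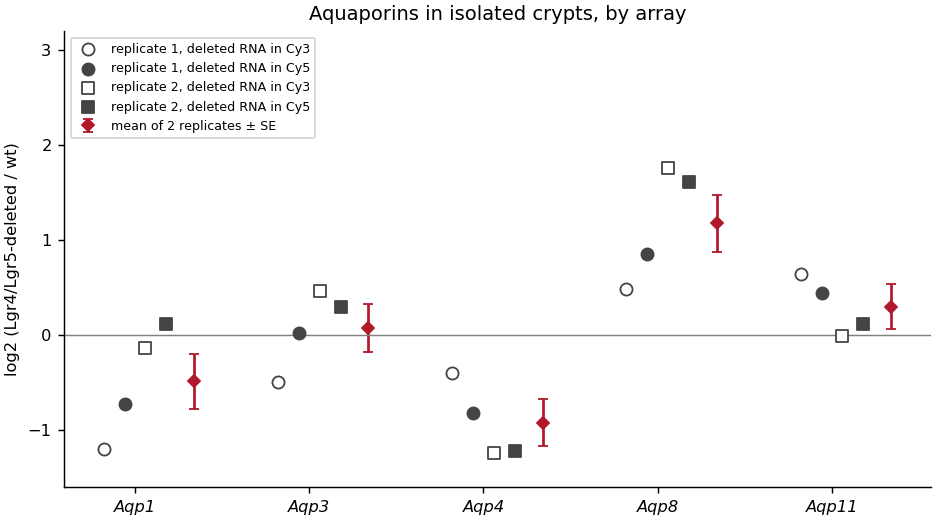
Log2 ratio of deleted over wt crypts for the 5 aquaporins tested, with 1 point per array (circles replicate 1, squares replicate 2, open symbols deleted RNA in Cy3) and a diamond for the mean of 2 replicates ± SE from limma. Aqp8 lies above 0 on all 4 arrays, from 0.49 to 1.76, and Aqp4 below 0 on all 4, from -0.40 to -1.24.

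For Aqp8 the log2 ratio of deleted over wt crypts was 0.49 and 0.85 on the arrays of replicate 1 and 1.76 and 1.61 on those of replicate 2. Both replicates were above 0, and replicate 2 was the higher on both dyes. The mean was 1.18 (SE 0.30, n = 2 replicates), a 2.26-fold difference with an unadjusted p of 0.00807 and an adjusted p of 0.238 by limma. With the scanner software's processed signals the value was 1.495 and the adjusted p 0.0158, where 4.11% of genes were called. With median centring it was 1.30 with an adjusted p of 0.0398, where 2.74% were called, and that centring also moved the median of all genes to 0.15, so that Aqp8 lay 1.15 above it. Of the 5 members, Aqp8 was called under these settings, and no other. The raw signals behind it were 426 and 341 in deleted crypts of replicate 1, against 245 and 299 in wt crypts on the same arrays. In replicate 2 they were 1942 and 2361 in deleted crypts, against 706 and 427 in wt crypts.

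Aqp4, the crypt base member, gave -0.40 and -0.82 on the arrays of replicate 1 and -1.24 and -1.22 on those of replicate 2. All 4 arrays were below 0. The mean was -0.92 (SE 0.25, n = 2), or 0.528 of the wt level, with an adjusted p of 0.254 by limma. Its other probes gave -0.93, with 1 array left out because its spot was marked as an outlier, and -0.73. The 3 probes thus lay on the same side, with 11 of 11 array values below 0. These are repeated readings of the same 2 replicates, not independent values, and 36.5% of all genes kept 1 sign on every array.

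Aqp1 gave -1.20 and -0.72 in replicate 1, against -0.14 and 0.12 in replicate 2. The replicates therefore differed, and the mean of -0.49 (SE 0.29, n = 2) had an adjusted p of 0.499 by limma. Aqp11 gave 0.64 and 0.44 in replicate 1 and -0.01 and 0.11 in replicate 2, with a mean of 0.30 (SE 0.24, adjusted p 0.603 by limma). For Aqp3 the arrays of replicate 1 gave -0.49 and 0.03 and those of replicate 2 gave 0.47 and 0.29. Its mean of 0.07 (SE 0.25, adjusted p 0.917 by limma) took the other sign, -0.01, when only the arrays with deleted RNA in Cy3 were used. Each of these 3 means lay less than 2 standard errors from 0.

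Aqp7 did not pass the filter in crypts. Its probes were above background in every channel of replicate 2 but in only 1 of 4 channels of replicate 1, and their log2 ratios averaged 0.17 and 0.10. The summed normalised level of the 6 enterocyte markers was 433300 to 717400 in deleted crypts, against 300200 to 318700 in wt crypts. That of the 4 stem cell markers, which include the deleted gene Lgr5, was 8956 to 15220 in deleted crypts, against 28420 to 40850 in wt crypts. The other stem cell markers read -1.81 (Olfm4), -0.68 (Smoc2) and -0.48 (Ascl2). The 4 goblet cell markers summed to 284700 to 386100 in deleted crypts, against 227300 to 254100 in wt crypts. Singly they did not move together: Clca1 read 0.83, Fcgbp 0.12, Muc2 -0.07 and Tff3 -0.36. The summed ranges of these 3 lists did not overlap. With 2 samples a group that is common for single genes: in organoids 36.6% of all genes did not overlap. Paneth cell sums overlapped, at 128000 to 299200 in deleted and 263400 to 335300 in wt crypts, and so did immune cell sums, at 20610 to 56420 in deleted and 48960 to 49070 in wt crypts. Single markers of those cells lay apart at an unadjusted p under 0.05 but not after adjustment by limma: the leukocyte genes Cd8a at 1.72 (adjusted p 0.115) and Ptprc at 1.70 (adjusted p 0.109), the Paneth gene Ang4 at -1.45 (adjusted p 0.180), and the collagen gene Col3a1 of stroma at -1.11 (adjusted p 0.238). The other immune markers tested read 0.18 (Cd3e) and -0.76 (Lyz2), so that list did not move together. The other Paneth markers read -0.79 (Lyz1) and -0.38 (Mmp7), and Acta2 of the stroma list -0.11. None of the 4 enteric glia markers was above background on every array of either group. The part of these cells in the Aqp8 and Aqp4 values was not tested. In such bulk RNA, fewer cells of a type and less RNA per cell cannot be told apart. For Aqp1, the endothelial markers had 1 of 6 above background, Plvap, with a summed level of 1074 to 1146 in deleted crypts and 1048 to 1099 in wt crypts. Hba-a1, a haemoglobin chain of red blood cells, read 0.83 (SE 0.41, adjusted p 0.423 by limma), the other sign from Aqp1. Their part in the Aqp1 values was not tested.

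In deleted organoids Aqp8 and Aqp3 were higher and Aqp1 lower than in wt organoids, with no overlap between the cultures, and Aqp11 was slightly higher. Deleting the receptors in culture was the study's counterpart to the animals. In the Cy5 fit none of the 5 members tested passed an adjusted p of 0.05 by limma, where 0.0376% of the 13311 genes did. At an unadjusted p under 0.05, 3 of the 5 passed (Aqp1, Aqp3 and Aqp8), against 7.69% of all genes. For 4 of the 5 the deleted and wt cultures did not overlap, against 36.6% of all genes. Each slide carried 1 deleted and 1 wt culture, and with the slide as a block the same 3 members had adjusted p of 0.00299 (Aqp1), 0.00412 (Aqp3) and 0.00187 (Aqp8) by limma, where 3.19% of genes were called. By ratio to the reference none of the 5 members passed, where 0% of 12883 genes did (270 higher and 229 lower at an unadjusted p under 0.05, by limma). The slide fit leaves 1 residual degree of freedom per gene before limma's pooling.

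**Figure D2:**
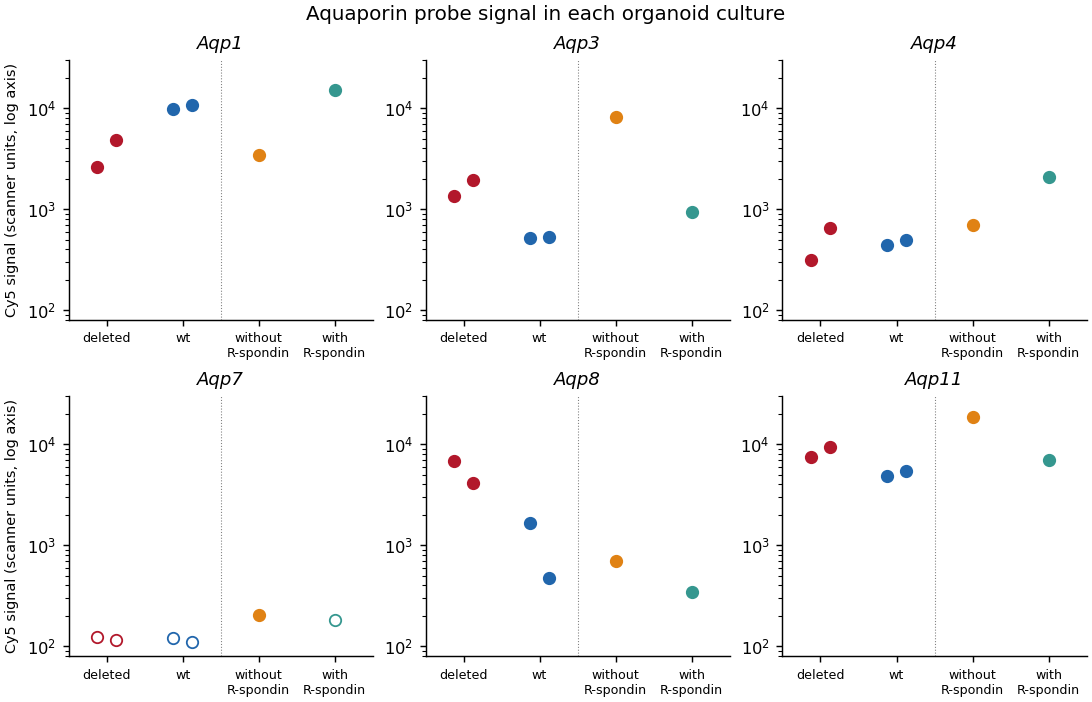
Cy5 scanner signal on a log axis for the brightest probe of each aquaporin, with 1 point per culture, filled where well above background and open where not. Left of the dotted line are the 2 deleted and 2 wt cultures, right of it the culture without and the culture with R-spondin, and the sides come from array sets with different pixel statistics. Aqp8 and Aqp3 are higher and Aqp1 lower in deleted than in wt cultures, while Aqp7 stays between 111 and 124 in all 4.

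Aqp8 had Cy5 signals of 6892 and 4139 in the deleted cultures, against 1664 and 471 in the wt cultures. The deleted cultures lay above both wt cultures, and the wt cultures themselves differed more than those of any other member. After quantile normalisation the log2 levels were 12.74 and 11.76 in the deleted cultures, against 10.69 and 8.88 in the wt cultures. The difference was 2.47 (SE 0.63, 2 cultures a group), a 5.52-fold higher level, with an adjusted p of 0.426 without the slide term by limma. Within the slides it was 2.05 and 2.88. By ratio to the faulty reference it was 0.81 (SE 0.26). Without wt replicate 1 it was 3.37 with an adjusted p of 0.0207 by limma, and without wt replicate 2 it was 1.56 with an adjusted p of 0.284.

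Aqp1 had Cy5 signals of 2614 and 4837 in the deleted cultures, against 9830 and 10742 in the wt cultures. The deleted cultures were below both wt cultures. On the normalised log2 scale the levels were 11.36 and 11.98 in the deleted cultures, against 13.30 and 13.56 in the wt cultures. The difference of -1.76 (SE 0.28) left 0.295 of the wt level, with an adjusted p of 0.177 without the slide term by limma. It was -1.95 on slide 1 and -1.58 on slide 2. By ratio it was -1.02 (SE 0.28), and -0.38 from the deposited log ratios. In these cultures only Plvap of the 6 endothelial markers was above background on every array. The endothelial sum was 1059 to 1060 in deleted and 1027 to 1033 in wt cultures.

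For Aqp3 the Cy5 signals were 1348 and 1956 in the deleted cultures, against 513 and 527 in the wt cultures. The wt cultures were close together and both below the deleted ones. The normalised log2 levels were 10.41 and 10.67 in the deleted cultures, against 8.94 and 9.04 in the wt cultures. The difference was 1.55 (SE 0.22), or 2.93-fold, with an adjusted p of 0.144 without the slide term by limma. It was 1.47 on slide 1 and 1.63 on slide 2, the closest agreement between slides of the 3 members called with the slide term. By ratio it was 1.44 with an SE of 2.05.

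Aqp11 had Cy5 signals of 7558 and 9336 in the deleted cultures, against 4875 and 5413 in the wt cultures. The groups did not overlap, but the difference of 0.47 (SE 0.22, adjusted p 0.697 by limma) also missed the threshold with the slide as a block, at an adjusted p of 0.214. Aqp4 had signals of 314 and 648 in the deleted cultures, against 442 and 496 in the wt cultures. These overlapped, and the difference was -0.22 (SE 0.34, adjusted p 0.953 by limma), with -0.51 on slide 1 and 0.07 on slide 2. The other Aqp4 probes gave -0.42 and -0.40, with adjusted p of 0.853 and 0.902 by limma with probes tested singly. By the first of these the groups did not overlap, at log2 levels of 7.90 and 8.50 in deleted and 8.63 and 8.62 in wt cultures. By ratio to the reference these other probes gave 0.14 (SE 0.41) and -0.87 (SE 0.50), and the brightest gave no value. Aqp7 was not well above background in any of the 4 cultures, at signals of 106 to 124 over its probes, so only a bound holds there and no difference is given. The summed enterocyte marker level was 482900 to 579500 in deleted cultures, against 422900 to 514700 in wt cultures, and the ranges overlapped. The stem cell marker sum, which includes the deleted gene Lgr5, was 3087 to 5737 in deleted cultures, against 15490 to 26860 in wt cultures, with no overlap. The other stem cell markers read -4.43 (Olfm4), -1.13 (Smoc2) and -0.68 (Ascl2). Goblet sums, at 155600 to 167300 in deleted and 124500 to 179500 in wt cultures, and Paneth sums, at 39520 to 71410 in deleted and 49110 to 158400 in wt cultures, overlapped. The part of these cells in the aquaporin values was not tested.

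Without R-spondin the organoid culture had more Aqp3, Aqp8 and Aqp11 and less Aqp1 and Aqp4 than the culture with R-spondin. The comparison asked what changes 1 day after the ligand is withheld. Each side was 1 array, so there is no replicate check and no test, and changes are differences of log2 ratios to the reference RNA. Of the 6 members compared, 2 (Aqp3 and Aqp8) were at least 2-fold higher without R-spondin, against 4.51% of the 17165 genes, and 2 (Aqp1 and Aqp4) at least 2-fold lower, against 6.47%. Aqp4 was not so with the scanner software's processed signals or the series matrix, both at -0.95.

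**Figure D3:**
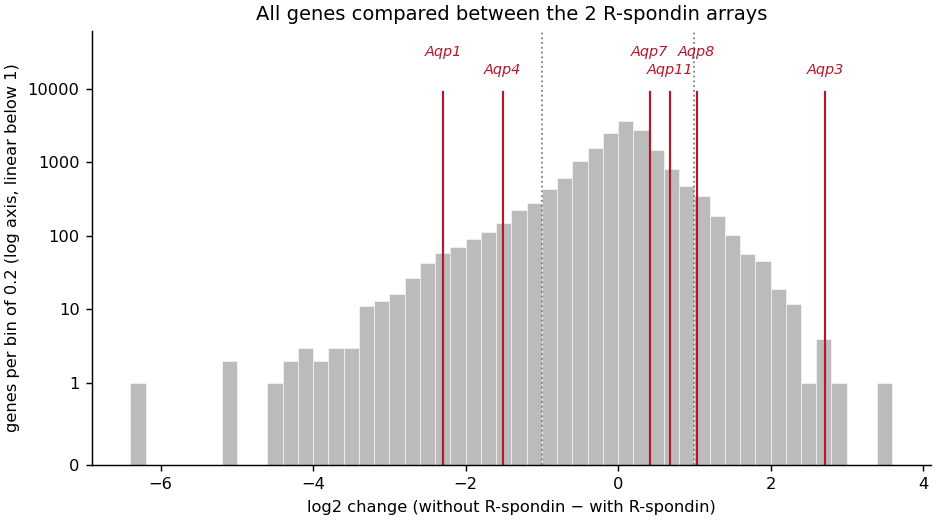
Number of genes (log axis) by log2 change between the culture without and the culture with R-spondin, in bins of 0.2 for 17165 genes, with red lines at the aquaporins and dotted lines at 2-fold. Aqp3 at 2.72 lies in the upper tail and Aqp1 at -2.30 in the lower tail, while Aqp7 and Aqp11 lie within 2-fold.

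Aqp3 had a Cy5 signal of 8173 without R-spondin, against 933 with R-spondin. The log2 change was 2.72, or 6.58-fold, and 3.08 from Cy5 alone. It ranked 4th among the 9887 genes that were higher without R-spondin. Aqp8 had signals of 701 without R-spondin and 341 with it, a change of 1.03 (1.23 from Cy5 alone). Aqp11 had signals of 18538 without and 7010 with R-spondin, a change of 0.68, which was 1.1 from Cy5 alone and so on the other side of 2-fold.

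Aqp1 had a Cy5 signal of 3447 without R-spondin, against 15126 with R-spondin. The change was -2.30, or 0.204 of the level with R-spondin, and -2.42 from Cy5 alone. It ranked 151st among the 7278 genes that were lower without R-spondin. Aqp4 had signals of 695 without and 2070 with R-spondin, and its change was -1.52, with -1.24 and -1.63 by its other probes. The reference channel was not above background for the brightest Aqp4 probe, and Cy5 alone gave -1.78. Aqp7 was just above background without R-spondin, at signals of 192 and 203 over its probes, and not well above background with R-spondin, at 179 and 180. It entered this comparison only through the culture in which it was detected. The enterocyte marker sum was 691800 without and 468900 with R-spondin, and the stem cell marker sum 1961 without and 25760 with R-spondin. Of the 6 enterocyte markers only 3 were compared singly, and they read 0.83 (Alpi), 0.23 (Apoa1) and 0.13 (Lct). Goblet markers summed to 425000 without and 156900 with R-spondin, and Paneth markers to 41320 without and 113400 with R-spondin. The single goblet markers read 1.49 (Clca1), 0.93 (Muc2), 0.18 (Fcgbp) and -0.16 (Tff3). The endothelial sum was 1150 without and 1082 with R-spondin, and the enteric glia sum 1393 without and 1082 with R-spondin. Their part in the aquaporin values was not tested.

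Set side by side, Aqp8 was higher in each comparison, by 1.18 in deleted crypts, 2.47 in deleted organoids and 1.03 without R-spondin. Aqp1 was lower in deleted organoids, at -1.76, and without R-spondin, at -2.30, while its crypt mean of -0.49 lay less than 2 standard errors from 0. In the same order of comparisons, Aqp3 read 0.07, 1.55 and 2.72, so its organoid changes had no counterpart of that size in crypts, though the difference between crypts and organoids was not tested. Aqp4 read -0.92, -0.22 and -1.52. It was lower in deleted than in wt crypts, though short of the adjusted threshold, and lower without than with R-spondin. By its brightest probe deleted and wt organoids overlapped. Aqp11 read 0.30, 0.47 and 0.68.

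The level of each probe was also placed on 1 scale over all 6 conditions, by quantile normalisation of the 14 channels that held sample RNA, with the dye-swapped channels of a crypt replicate averaged. Array set and tissue cannot be told apart on this scale, nor array set and culture between the deletion and R-spondin organoids. No probe is set against another probe.

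**Figure D4:**
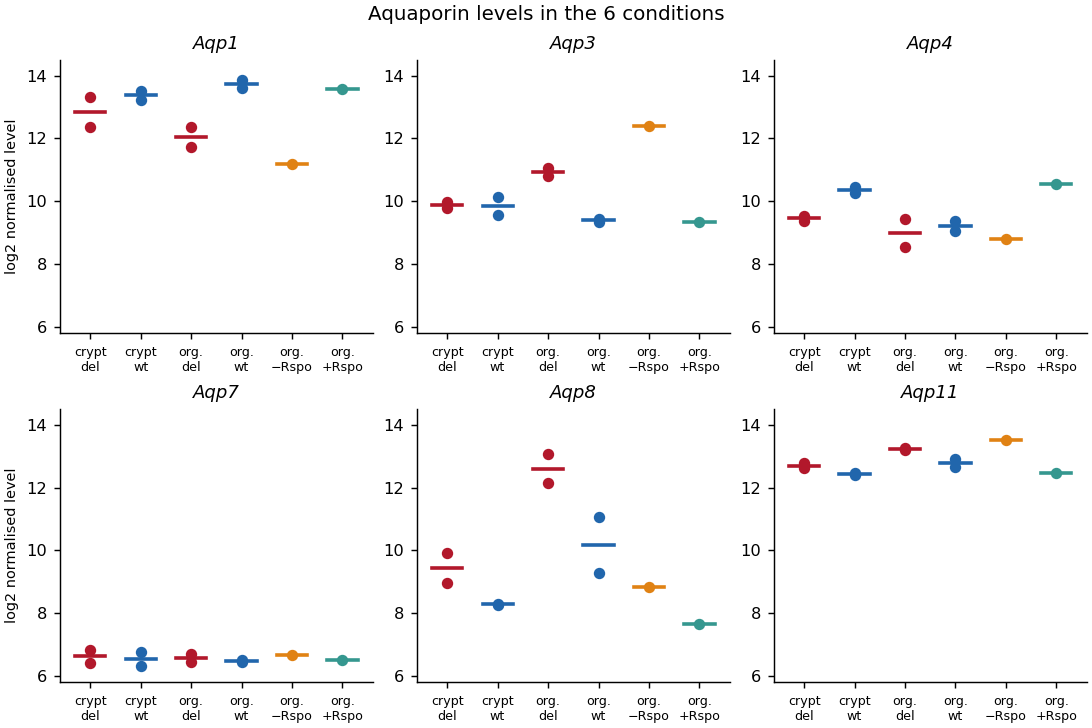
Normalised log2 level of the brightest probe of each aquaporin (the probe shown for Aqp7 was the brighter in the R-spondin comparison) in crypts (deleted, wt), organoids (deleted, wt) and organoids without and with R-spondin, with 1 point per replicate and a bar at the mean. Aqp8 spans from 7.65 with R-spondin to 12.61 in deleted organoids, and Aqp7 stays between 6.47 and 6.67 on average.

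Aqp8 was highest in deleted organoids at 12.61 ± 0.65 (SD, n = 2), followed by wt organoids at 10.17 ± 1.27 and deleted crypts at 9.44 ± 0.66. The culture without R-spondin, at 8.83, wt crypts at 8.27 ± 0.03 and the culture with R-spondin, at 7.65, came below. Wt organoids and deleted crypts did not differ beyond their spread, and the deletion and R-spondin organoid sets lay far apart for this gene: wt cultures were above the culture without R-spondin.

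Aqp1 was highest in wt organoids at 13.74 ± 0.16, with R-spondin at 13.58 and wt crypts at 13.38 ± 0.21 close behind, each neighbour within 1 SD of the next. Deleted crypts followed at 12.84 ± 0.68, deleted organoids at 12.05 ± 0.43, and the culture without R-spondin was lowest at 11.18. Aqp3 was highest without R-spondin at 12.40, then in deleted organoids at 10.93 ± 0.18. Deleted crypts at 9.89 ± 0.15 and wt crypts at 9.85 ± 0.41 overlapped, and wt organoids at 9.38 ± 0.07 and the culture with R-spondin at 9.32 were lowest and within 1 SD of each other.

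Aqp4 was highest with R-spondin at 10.56 and in wt crypts at 10.36 ± 0.13. Deleted crypts at 9.45 ± 0.10, wt organoids at 9.21 ± 0.21, deleted organoids at 8.99 ± 0.62 and the culture without R-spondin at 8.81 followed. By the brightest probe the deleted organoids, at 8.55 and 9.43, lay on either side of the wt organoids, at 9.06 and 9.36. The culture without R-spondin lay below both wt organoids by each of the 3 probes, though across array sets. The control cultures of those sets also lay apart by the brightest probe, at 10.56 with R-spondin and 9.21 in wt organoids. Aqp11 varied least among the members detected throughout, between 12.43 ± 0.05 in wt crypts and 13.52 without R-spondin. Aqp7 lay between 6.47 and 6.67 by the probe plotted and between 6.27 and 6.94 by the other, and the order of conditions differed between its probes.

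The genes whose changes lay nearest to each member were found over 7 values (4 crypt array ratios, 2 within-slide organoid differences and the R-spondin difference) among 8155 genes tested in all 3 comparisons. For Aqp1 they were Afap1l1, at a root mean square difference of 0.21 log2 units, Cbx6 at 0.30 and the transcript ENSMUST00000050829 at 0.32. For Aqp4 they were Depdc1a at 0.18, Ube2c at 0.23 and Zfp618 at 0.24, and for Aqp11 Bmp8a at 0.13, Slc30a7 at 0.15 and Trp53inp2 at 0.15. Aqp3 had no gene nearer than Id4 at 0.52, with Rep15 at 0.53 and Zmat4 at 0.54. Aqp8 stood farthest from its neighbours, Pm20d1 at 0.66, Bfsp1 at 0.66 and Pcp4l1 at 0.69.

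Of the other 6 aquaporins on the array, Aqp6, Aqp9, Aqp12 and Mip, the lens member, were above background in at most 1 of 14 sample channels by each of their probes. Aqp2, the water channel of the kidney collecting duct, was above background in every sample, at signals of 168 to 524, and was the only one tested in crypts, at 0.06 (SE 0.22, adjusted p 0.919 by limma). Aqp5, of secretory glands, was above background in all 6 organoid cultures, at 138 to 283, and in no crypt channel. In organoids Aqp2 read -0.01 and Aqp5 -0.03 for deleted minus wt, and 0.17 and 0.14 without minus with R-spondin.

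Genes that move the salt that water follows were also counted. Of 9 genes of sodium and chloride absorption, none passed the adjusted threshold in crypts by limma, where 3 were higher at an unadjusted p under 0.05, against 13.7% of all genes past it in either direction. Their median log2 difference was 0.17 in crypts, against -0.02 over all genes. In organoids none of 8 tested passed without the slide term and 2 rose with it, against 3.19% of all genes called in either direction. These were the sodium-proton exchangers Slc9a3, by 1.56 (adjusted p 0.0146 by limma with the slide as a block), and Slc9a2, by 0.99 (adjusted p 0.0374). The organoid median was 0.53, against 0.02 over all genes. Without R-spondin 5 of 9 were at least 2-fold higher, against 4.51% of all genes, among them the chloride-bicarbonate exchanger Slc26a3 at 2.20, the epithelial sodium channel subunit Scnn1a at 1.42, the scaffold Slc9a3r1 at 1.26 and the carbonic anhydrase Car4 at 1.13. That median was 1.00, against 0.07 over all genes.

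Of 12 genes of chloride and fluid secretion, none passed in crypts, with 4 higher and 2 lower at an unadjusted p under 0.05, against 13.7% of all genes, and a median of -0.13. In organoids none of 11 passed without the slide term, and with it 3 fell, against 3.19% of all genes called in either direction. These were Slc12a2, the basolateral sodium-potassium-chloride cotransporter, at -2.39 (adjusted p 0.00913 by limma with the slide as a block), Kcne3, a potassium channel subunit, at -1.76 (adjusted p 0.0284), and its partner Kcnq1 at -1.06 (adjusted p 0.0254). Cftr, the apical chloride channel, read -0.93 (adjusted p 0.0678). Without R-spondin Slc12a2 read -3.75, Kcnn4, a calcium-activated potassium channel, -1.94, and Kcne3 -1.78, while Clcn2, another chloride channel, read 1.1. The list's median was 0.13 in organoids and -0.04 without R-spondin.

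**Figure D5:**
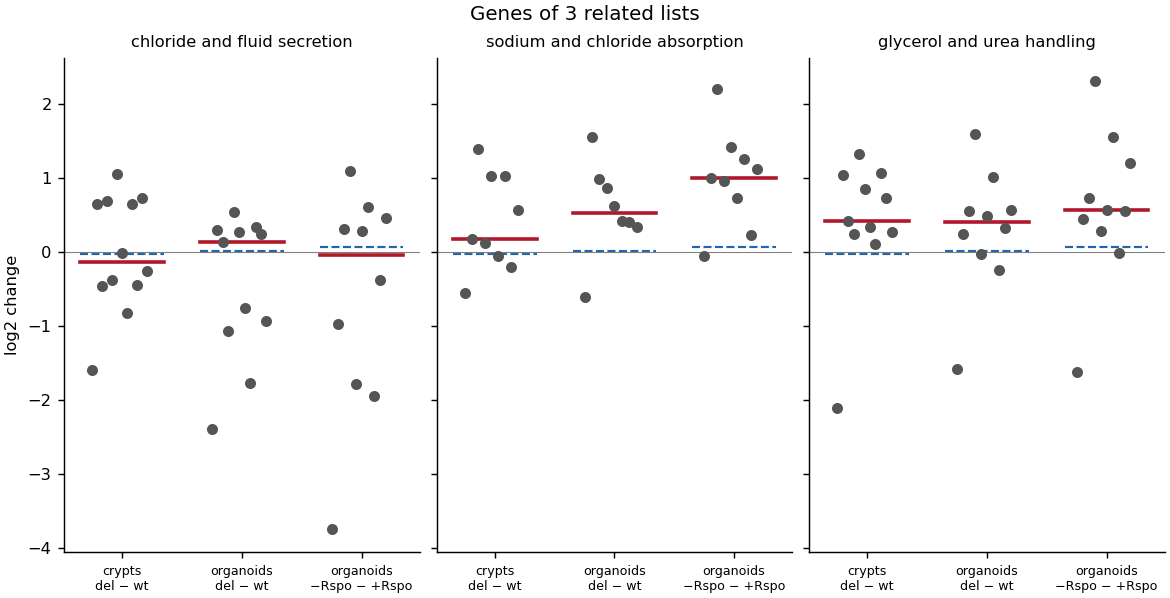
Log2 change of each measured gene of 3 lists in crypts (deleted minus wt), organoids (deleted minus wt, Cy5) and organoids (without minus with R-spondin), with 1 point per gene, a solid red bar at the list's median and a dashed blue bar at the median of all genes. The absorption list has medians of 0.17, 0.53 and 1.00, and the secretion list has its lowest point at -3.75 without R-spondin.

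Of 11 genes of glycerol and urea handling, which bears on the glycerol carried by Aqp3 and Aqp7, none passed in crypts, with 5 higher and 1 lower at an unadjusted p under 0.05, against 13.7% of all genes, and a median of 0.43. The largest were the urea transporter Slc14a1 at -2.11 (adjusted p 0.0623 by limma) and the monoglyceride lipase Mgll at 1.33 (adjusted p 0.271). In organoids none of 10 passed without the slide term. With it Gk, the glycerol kinase, rose by 1.02 (adjusted p 0.0369 by limma with the slide as a block), and Slc14a1 fell, at -1.58 (adjusted p 0.0114). Over all genes 3.19% were called by that fit. The organoid median was 0.41. Without R-spondin Gk read 2.32, the acyltransferase Dgat2 1.56, the lipase Lipe 1.20 and Slc14a1 -1.62, with a list median of 0.56. The 4 fat cell markers Adipoq, Cfd, Fabp4 and Plin1 were not above background on every array of any condition, except Fabp4 in the culture without R-spondin.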

How the data were processed

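The deposited scanner files hold spot and local background intensity, per the file headers from Agilent Feature Extraction 10.5.1.1, whereas the submitters' processing notes name 8.5.1.1. The deposited series matrix holds the log10 ratio of the processed signals, per the file headers and a match to the scanner columns, and reads deleted over wt in every crypt column, because the signs of the 2 arrays with Cy3-labelled deleted RNA are reversed in it. Its scale and direction were thereby settled, and it was used as an alternative.

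Outlier-marked and control spots were left out. The marker sums, however, kept outlier-marked spots, so that each list was summed over the same probes in every sample. Intensities were corrected by normexp (offset 50) in limma 3.58.1 under R 4.3.3, with data.table (version 1.17.8), and normalised by loess within arrays, or for Cy5 alone by quantiles between arrays. The deletion organoid arrays gave median pixel signals and the others mean pixel signals. Probes entered a test if the scanner software called them well above background throughout at least 1 group, and a gene was represented by its brightest such probe. Dye swaps were averaged, so crypts gave n = 2, tested against 0, and organoids were tested 2 against 2. Benjamini-Hochberg adjustment covered all genes of a comparison, at 0.05. Names came from RefSeq accessions for 26690 of 41174 probes, current symbols for 5189, older symbols for 952, and the file for 8343.

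Same-slide deleted and wt cultures deviated together (r = 0.534 across 13311 genes), so the slide, which the replicate number follows, was also fitted as a block. The members and lists were chosen with earlier results of these data known. All probes named for the members were reported. From the lists, genes past the test and at most 4 largest changes per comparison were named, and for each member the 3 nearest genes. Precision is limited by how few arrays there were. Alternatives were other signals, scalings, filters and left-out samples. A sum over 1 marker list is not reported here.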

Additional observations from a re-analysis of the deposited data

How the results depend on the processing

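The counts of genes called moved widely with the processing, and the cause was not tested beyond each alternative's own construction. In crypts the 6 genes called became 502 with processed signals and 502 with the series matrix, 334 with median centring, 41 with outlier-marked spots kept, 33 with probes tested singly, 110 with deleted RNA in Cy5 only, 439 with deleted RNA in Cy3 only, and 0 with no filter on dim probes. In organoids the 5 genes called became 425 with the slide as a replicate block, 88 with processed Cy5 signals, 13 with the series matrix, 1 with outlier-marked spots kept, and 0 by ratio and with no filter. Leaving out 1 organoid culture gave 0 to 111 genes, the highest without wt replicate 1. Genes at least 2-fold changed without R-spondin numbered 1884, and 2841 with processed signals and 2830 with the series matrix.

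Aqp1, Aqp4, Aqp8 and Aqp11 kept their sign in crypts under all 10 alternatives, and Aqp8 passed the threshold under 3. Of those 3, the processed signals and the series matrix hold the same values, both at 1.495 for Aqp8, and the other was median centring. Without replicate 1, however, Aqp1 was near 0 at -0.01, against -0.96 without replicate 2, and Aqp11 read 0.05, against 0.54. Aqp3 in crypts read -0.0134 with deleted RNA in Cy3 only, and -0.23 without replicate 2. In organoids Aqp1, Aqp3, Aqp8 and Aqp11 kept their sign under all 13 alternatives, and the block moved Aqp1, Aqp3 and Aqp8 past the threshold (values -1.76, 1.55 and 2.47) and changed the call of no other member. Aqp4 there read -0.87 by ratio to the reference and 0.26 with the series matrix. Both came from another of its probes, because the brightest had an outlier-marked reference spot. It read between -0.66 and 0.22 when 1 culture was left out, the highest without deleted replicate 1. Without R-spondin Aqp1, Aqp3, Aqp4, Aqp8 and Aqp11 kept their sign under 6 alternatives, with Aqp4 inside 2-fold at -0.95 with processed signals and the series matrix and Aqp11 outside it at 1.1 from Cy5 alone. Aqp7 was detected on 1 side only, which fixed its sign. No member or list gene was called from the R-spondin arrays, which hold 1 sample a side.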
